A study of Mus musculus with 2 samples.

Results

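The ligands and receptors of the ErbB family were examined in back skin taken from mice at 10 days of age. The set was defined by gene name and was chosen with earlier results of these data known. It holds the ligand genes Epgn, Areg, Ereg, Hbegf, Tgfa and Btc, the receptor genes Egfr, Erbb2 and Erbb3, and the inhibitor gene Errfi1. Of these 10 genes 9 had a named probe set, among 12393 named genes in all. Areg was not analysed here. The 9 genes were read by 19 probe sets, of which 17 lay above the signal floor of 34.7 on both arrays. The other 2, 1 of Btc and 1 of Erbb3, lay below it on both. Every one of the 9 genes had at least 1 probe set above the floor on both arrays, so none of the ratios for these genes is a bound.

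The study compared mice that express a constitutively active aryl hydrocarbon receptor (AhR) in keratinocytes with non-transgenic littermates. AhR is a transcription factor that is normally switched on by dioxins and related compounds, and the active form works without them. The transgenic sample is titled K14Ahr, a name that points to the keratin 14 promoter of basal keratinocytes, which the labels do not spell out. RNA came from whole skin of both genotypes, so keratinocytes were measured together with hair follicles, dermis and immune cells. Each genotype had 1 array, which may hold RNA of 1 animal or of several. No difference could therefore be tested, no replicate error exists, and 2 arrays set the precision of every value below. In whole skin, more cells of a type and more RNA per cell cannot be told apart.

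Epgn, Areg, Ereg, Hbegf, Tgfa and Btc are made as membrane-anchored precursors that proteases cut free. The released ligands bind Egfr, and some of them also Erbb4, which then pairs with another ErbB receptor and signals through the Ras and PI3 kinase pathways. In skin this system supports keratinocyte growth, wound closure and the shape of the hair follicle. Errfi1 binds the active receptor and blocks its kinase, and signalling through the receptor induces it as a feedback brake.

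Among the ligands, Epgn and Hbegf were higher on the array with active AhR, while the receptors read nearly alike on both arrays. Epgn was 6.22-fold higher and Hbegf 1.92-fold higher, while Ereg and Btc were both 1.29-fold higher and Tgfa had a log2 ratio of -0.30. The receptors Egfr, Erbb2 and Erbb3 had log2 ratios of 0.00, 0.16 and 0.28. Each ratio divides the transgenic by the wild-type signal of the gene's brightest probe set, and a gene counted as different at 2-fold. Of the 5 named ligands 1 passed this limit, Epgn, which was higher, and of the 3 receptors none passed it in either direction. Over all 8894 measured genes 2.27% passed it upwards and 1.09% downwards. A limit of 3-fold left Epgn as the 1 ligand past it, where 0.686% of measured genes were higher. A limit of 1.5-fold added Hbegf, where 6.80% were higher and 6.38% lower. The median log2 ratio was 0.37 for the ligands and 0.16 for the receptors, beside -0.05 for all measured genes.

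**Figure D1:**
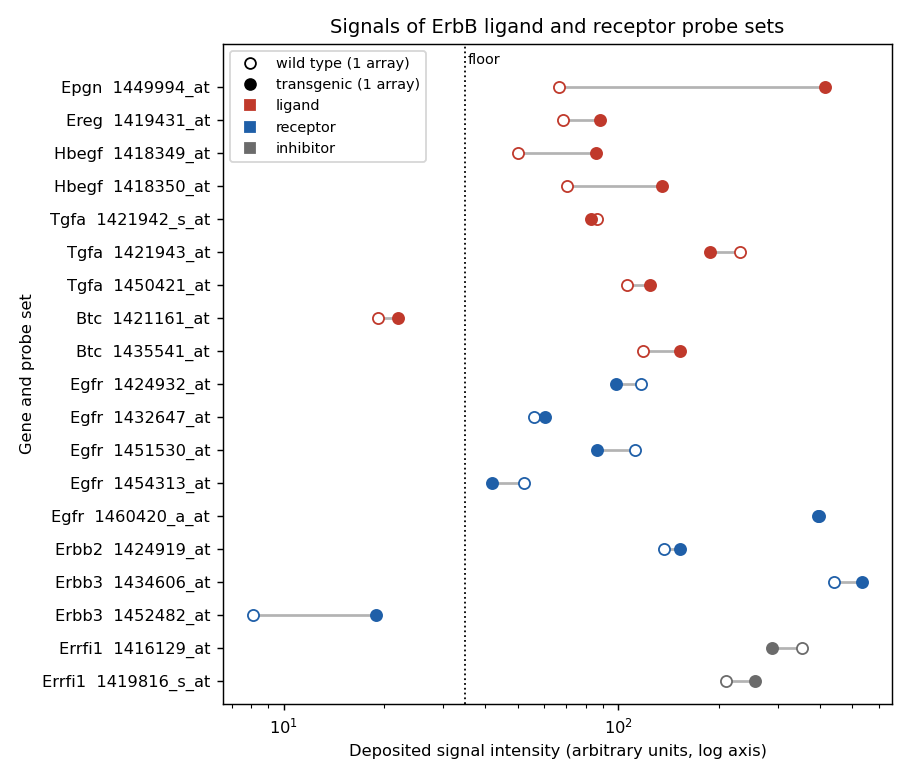
Deposited signal intensity (log axis) of the 19 probe sets on the wild-type array (open circles) and the transgenic array (filled circles), with ligands in red, receptors in blue and the inhibitor in grey; the dotted line is the floor of 34.7. The widest gap above the floor is that of Epgn, from 66.5 to 413.7, and the Egfr probe set at 397 shows no gap.

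Epgn encodes epigen, a ligand of Egfr that binds it with low affinity. Its 1 probe set, 1449994_at, read 413.7 with active AhR and 66.5 in wild type. The log2 ratio of 2.64 ranked 8th among the 7972 genes with signal above that floor on each array, whose ratios are not bounds. No second probe set of Epgn was named, so this reading has no other probe set to set beside it.

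Hbegf encodes the heparin-binding ligand of Egfr and Erbb4, a growth factor of wounded epidermis. Its probe set 1418350_at read 135.3 on the transgenic array against 70.3 on the wild-type array, a log2 ratio of 0.94. The other probe set, 1418349_at, read 85.7 against 50.0, a log2 ratio of 0.78. Both readings were higher on the transgenic array and lay 0.16 apart. The first ranked 187th among the 7972 genes and stayed just under the 2-fold limit. With log2 ratios centred on signal by lowess, a smoothing curve, it was 1.03 and passed that limit.

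Ereg and Btc read higher on the transgenic array by a smaller amount, each by 1 measured probe set. Ereg encodes epiregulin, which binds Egfr and Erbb4. Its probe set read 87.9 against 68.2, a log2 ratio of 0.37, higher than 87.6% of the 7972 genes. Btc encodes betacellulin, another ligand of these receptors, and its probe set 1435541_at read 152.4 against 118.4, a log2 ratio of 0.36. The other Btc probe set read 22.0 and 19.1, below the floor on both arrays, and gives no ratio.

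Tgfa encodes transforming growth factor alpha, the ligand whose loss gives mice wavy hair and whiskers. Its 3 probe sets did not share a direction. The brightest, 1421943_at, read 188.0 against 231.4 and was lower on the transgenic array. Probe set 1450421_at read 124.5 against 106.2 and was higher, with a log2 ratio of 0.23. Probe set 1421942_s_at read 82.8 against 86.1, a log2 ratio of -0.06. The 3 ratios spanned 0.53 and their mean was -0.04, so no direction can be given for Tgfa.

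To judge such gaps, the log2 ratios of 2 probe sets of the same gene were compared across the 1764 genes that had exactly 2 probe sets measured on each array. The median difference was 0.22 and the 95th percentile 0.75. This spread lies within the 2 arrays and can mix technical error with differences between the transcripts read. It says nothing of the spread between animals. The probe sets of Hbegf, Tgfa, Egfr and Errfi1 all lay closer together than 0.75. The log2 ratios of Ereg (0.37) and Btc (0.36) were themselves smaller than 0.75, with no second measured probe set to set beside them.

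**Figure D2:**
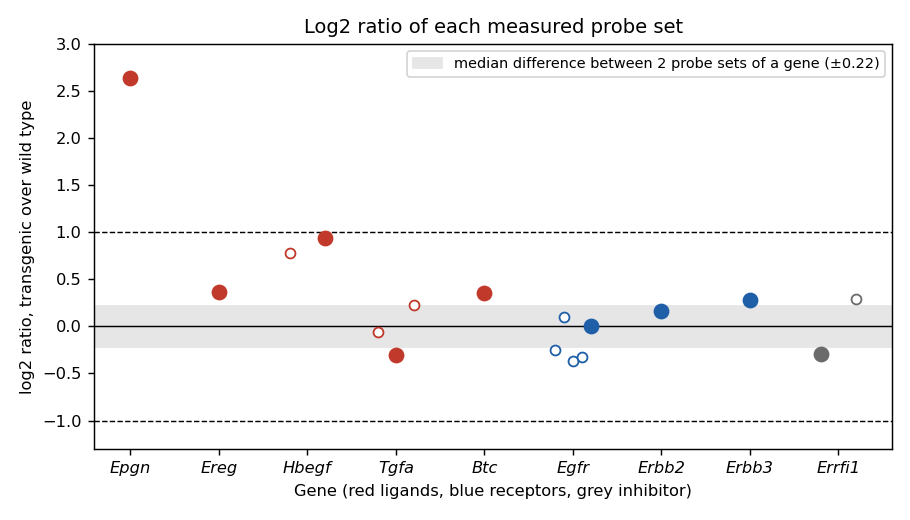
Log2 ratio (transgenic over wild type) for each of the 17 measured probe sets, grouped by gene; filled circles are the brightest probe set of a gene, open circles its others, dashed lines the 2-fold limits and the grey band the median difference of 0.22 between 2 probe sets of a gene. Epgn stands alone above the upper limit at 2.64, both Hbegf readings lie just under it, and the probe sets of Tgfa and of Errfi1 fall on both sides of 0.

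Egfr, the receptor that all 6 ligands bind, had 5 probe sets and the most readings of any gene in the set. The brightest, 1460420_a_at, read 396.6 with active AhR and 396.7 in wild type. Probe set 1451530_at read 86.6 against 112.2, 1424932_at read 98.4 against 116.8, and 1454313_at read 41.8 against 52.3. These 3 were lower on the transgenic array, with log2 ratios from -0.37 to -0.25. Probe set 1432647_at read 60.2 against 56.0, a log2 ratio of 0.10. The 5 readings of Egfr thus ran from -0.37 to 0.10, and their mean was -0.17. The name of the brightest carries a suffix, and without such probe sets Egfr was represented at -0.25.

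Erbb2 encodes the receptor that has no known ligand of its own and serves as a partner for the others. Its 1 probe set read 153.3 against 137.4. Erbb3 encodes a receptor with a weak kinase that binds neuregulins. It read 535.1 against 440.8 by probe set 1434606_at, higher on the transgenic array by a log2 ratio of 0.28. The other Erbb3 probe set read 18.9 and 8.1, below the floor on both arrays. Both receptors lay slightly above equality, by about as much as 2 probe sets of a gene commonly differ.

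Errfi1 gave readings of opposite direction. Probe set 1416129_at read 288.7 against 354.1, a log2 ratio of -0.29, and 1419816_s_at read 256.5 against 209.8, a log2 ratio of 0.29. Their mean was 0.00, so no direction can be given for this feedback inhibitor.

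Set against one another, the 9 genes form 36 pairs. In 12 of these the log2 ratios lay further apart than 0.75. That limit comes from probe sets of the same gene, and different genes can differ more. The share of pairs past it over all genes was not counted, so the 12 cannot be set against a background. All 8 pairs that hold Epgn were among the 12, with differences from 1.69 against Hbegf to 2.94 against Tgfa. These 8 all rest on the 1 probe set of Epgn. The other 4 paired Hbegf with Tgfa, Egfr, Erbb2 or Errfi1, where Hbegf was higher by 0.79 to 1.24 by the brightest probe sets. The other Hbegf probe set gave 0.78, and Tgfa and Errfi1 each had a probe set above 0 (0.23 and 0.29). With these in place of the brightest, some of the 4 differences fall under 0.75. Ligands and receptors made 15 pairs, of which 5 lay further apart than 0.75, 3 with Epgn and 2 with Hbegf. Ereg, Btc and Tgfa lay within 0.75 of every receptor, and no pair of receptors lay further apart than 0.28. The contrast of ligands with receptors on these arrays therefore rests on Epgn and Hbegf, and the Hbegf part depends on the probe sets chosen.

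**Figure D3:**
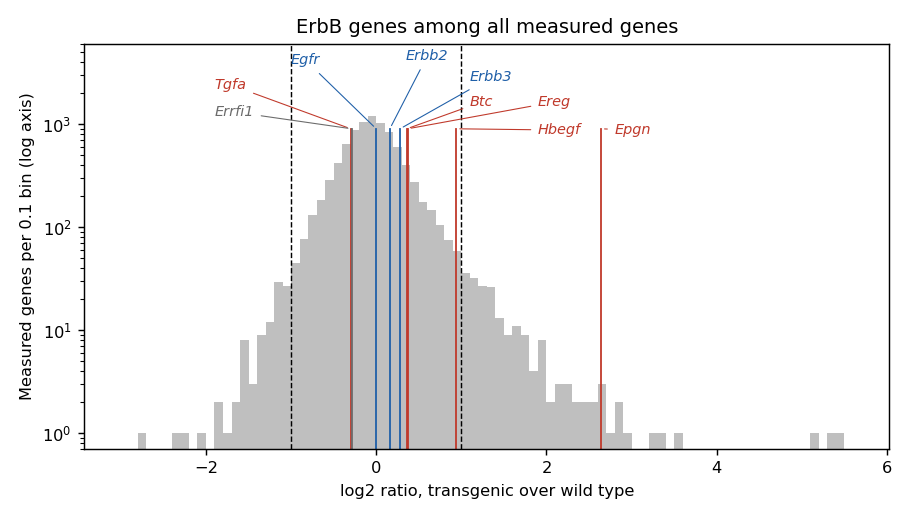
Number of measured genes (log axis) by log2 ratio (transgenic over wild type) in bins of 0.1, with the 9 genes of the set marked (ligands red, receptors blue, Errfi1 grey) and the 2-fold limits dashed. Epgn at 2.64 lies in the sparse upper tail, Hbegf at 0.94 on the shoulder near the limit, and the other 7 between -0.30 and 0.37.

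The sequence upstream of the start is shown for 3 ligands that differ in their ratio: Epgn, the highest, Btc, with a small difference, and Tgfa, with none that could be given a direction. Each is the 250 bases before the gene's RefSeq start in build GRCm38.p6, written 5′ to 3′ on the gene's own strand. Capitals mark the letters GCGTG, the core of the xenobiotic response element to which AhR and its partner ARNT bind, searched on both strands. Epgn is chr5:91027267-91027516 (plus strand), Btc chr5:91402995-91403244 (minus strand) and Tgfa chr6:86194972-86195221 (plus strand).
Epgn: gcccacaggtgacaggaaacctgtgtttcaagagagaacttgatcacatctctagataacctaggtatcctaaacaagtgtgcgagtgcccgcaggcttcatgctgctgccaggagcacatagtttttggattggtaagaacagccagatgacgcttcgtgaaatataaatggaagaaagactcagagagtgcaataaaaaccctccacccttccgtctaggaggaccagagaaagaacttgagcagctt
Btc: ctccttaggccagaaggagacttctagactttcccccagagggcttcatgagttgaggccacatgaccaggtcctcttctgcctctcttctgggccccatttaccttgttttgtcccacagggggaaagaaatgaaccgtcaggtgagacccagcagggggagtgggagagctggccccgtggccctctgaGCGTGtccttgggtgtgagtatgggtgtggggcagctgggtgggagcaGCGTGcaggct
Tgfa: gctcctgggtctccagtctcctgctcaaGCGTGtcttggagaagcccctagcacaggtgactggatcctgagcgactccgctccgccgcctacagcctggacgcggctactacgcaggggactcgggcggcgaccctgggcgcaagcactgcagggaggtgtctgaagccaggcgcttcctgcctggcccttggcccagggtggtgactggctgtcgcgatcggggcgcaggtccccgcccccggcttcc
The Epgn window does not hold these letters. The Btc window holds them beginning 59 and 11 bases before the start, and the Tgfa window 222 bases before it. RefSeq windows were matched for 7 of the 10 genes, Epgn, Areg, Tgfa, Btc, Egfr, Erbb2 and Errfi1. In these 7 genes, with 8 windows because Errfi1 has 2, the letters occurred in 3 genes, Btc, Tgfa and Errfi1. They occurred in 28.2% of all 32851 windows of this length. A match is a description of the letters and not a binding site, and windows without one say nothing of sites further away.

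Of the other ligands and receptor of the family, Egf, Nrg1, Nrg2, Nrg3, Nrg4 and Erbb4, 4 had a named probe set and 2 were measured. Egf, the founding ligand, read 38.9 against 45.1 (log2 ratio -0.21). Nrg4, a neuregulin, read 36.2 on the transgenic array against a wild-type signal of 31.9, below the floor. Nrg3 (5.4 and 10.0) and Erbb4 (1.0 and 1.6) lay below the floor on both arrays.

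Genes that release and process the ligands were listed together with the protease inhibitor gene Timp3, and 9 were measured. Their log2 ratios ran from -0.08 to 0.52, and 8 of the 9 lay above 0, beside 3881 of the 8894 measured genes. None of the 9 passed 2-fold in either direction, beside 2.27% of all measured genes upwards and 1.09% downwards. At these shares a count of none among 9 genes says little. Their median log2 ratio was 0.03. The highest were Adam8, a metalloprotease of leukocytes (86.4 against 60.3, log2 ratio 0.52), and Furin, which activates proproteins (182.7 against 139.5, 0.39). Adam17, the main sheddase of Hbegf, Tgfa, Epgn and Ereg, read 161.0 against 129.3 (0.32), and Adam10, the main sheddase of Btc, 332.1 against 293.7 (0.18). These last 2 were named for their role and after their values were seen. The lowest were Adam12 (-0.08), whose dimmer probe set gave 0.62, and Adam15 (0.00).

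Among 22 measured adaptor and kinase genes downstream of the receptors, 1 (4.55%) passed 2-fold upwards and none downwards. Over all measured genes 2.27% passed it upwards and 1.09% downwards. The median log2 ratio of the 22 was 0.03. The gene past the limit was Stat3, a transcription factor that Egfr and cytokine receptors activate, which read 370.6 against 155.9 (log2 ratio 1.25). Its other probe sets read 267.3 against 153.2 (0.80) and 72.6 against 49.8 (0.54), so all 3 were higher on the transgenic array but only the brightest passed 2-fold. Stat5b, a related factor, had a log2 ratio of 0.49. Stat5a, named after its value was seen, read 46.0 against a wild-type signal of 5.4, below the floor. Its log2 ratio of 0.41 is thus a lower bound. The lowest were Pik3r2, a regulatory subunit of PI3 kinase (-0.36), and the kinase gene Braf (-0.27).

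Feedback and degradation genes were mixed. Of 23 measured genes 1 (4.35%) passed 2-fold upwards and none downwards, beside 2.27% and 1.09% of all measured genes. The median log2 ratio of the 23 was 0.10. Socs3, an inhibitor of cytokine receptor signalling, read 73.5 against a wild-type signal of 27.9, below the floor, at least 2.12-fold higher. Its other 2 probe sets gave 0.76 and at least 0.63, under the limit, and with a floor at the 60th percentile the brightest gave at least 0.06. Dusp7, a phosphatase of ERK kinases, had a log2 ratio of 0.84 by its brightest probe set and 0.22 and 0.23 by the others. Dusp6, an ERK phosphatase that ERK signalling induces, was named after its value was seen and read 295.7 against 202.8 (0.54). The Spry and Spred genes of the list were also named after their values were seen. Log2 ratios were 0.35 for Spry2, 0.10 for Spry1, -0.02 for Spred1 and -0.22 for Spred2, and Spry4 lay below the floor on both arrays. The lowest were Hgs (-0.53) and Stam (-0.40), which sort ubiquitinated receptors in endosomes.

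Transcripts known to respond to Egfr signalling had a median log2 ratio of 0.26, and 19 of the 23 measured lay above 0, beside 3881 of the 8894 measured genes. Past 2-fold lay 2 of the 23 (8.7%), both higher, beside 2.27% of all measured genes. Tnfrsf12a, the receptor of the cytokine TWEAK, read 204.0 against 83.8 (log2 ratio 1.28), and its other probe set gave 0.84. Fos, an immediate early transcription factor gene, read 211.6 against 101.2 (1.06), and was 0.96 when a pseudocount of 16 replaced the floor. The lowest were Egr3, another immediate early gene (-0.50), and Vegfa, an angiogenic factor (-0.35), whose dimmer probe set gave at least 0.09, so its direction is not settled. None of these transcripts responds to ErbB signalling alone. The list was also chosen with earlier results of these data known, which limits the comparison with all measured genes.

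**Figure D4:**
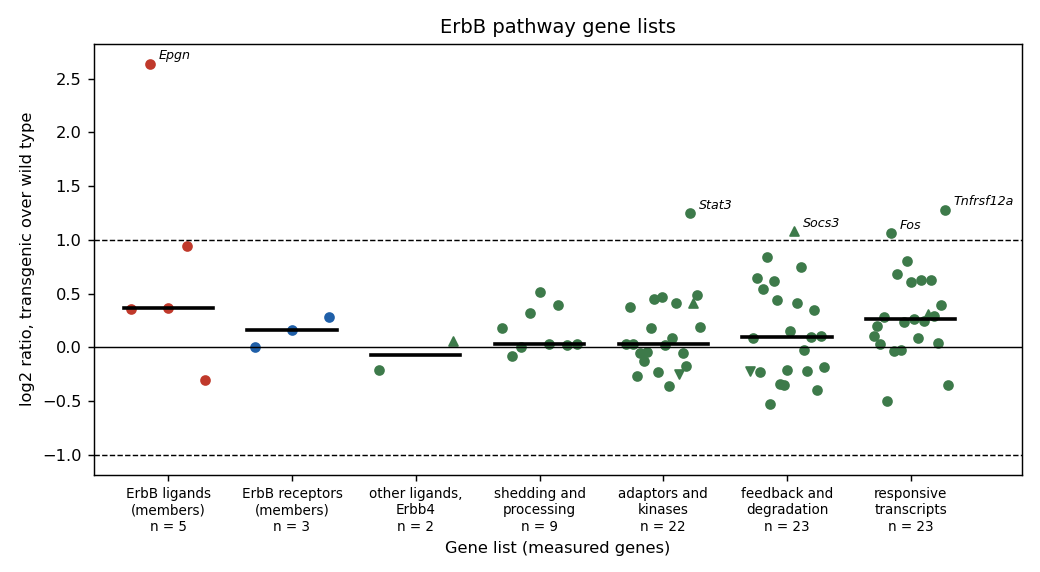
Log2 ratio (transgenic over wild type) for each measured gene of the ligands, the receptors and the 5 pathway lists; black bars are medians, dashed lines the 2-fold limits and triangles ratios that are bounds because 1 array lay at the floor. The pathway medians lie between -0.08 and 0.26, and 4 pathway genes, Stat3, Socs3, Tnfrsf12a and Fos, lie above the upper limit.

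The tissue and genotype were checked by marker genes. Cyp1a1, the classical AhR target, read 1801.7 with active AhR and 40.8 in wild type. Ahr itself read 135.8 against 108.5 (log2 ratio 0.32), and whether its probe set reads the transgene is not known here. Basal keratinocyte markers were present on both, with Krt14 at 3328 against 1987 and Krt5 at 2754 against 1868, while Trp63, which encodes the transcription factor p63, read 357.9 against 436.8. The summed signal of the 6 basal genes was 7445 against 4916, most of it from Krt14 and Krt5, and that of 6 genes of hyperproliferative keratinocytes 9296 against 3156. The summed signal of 9 macrophage genes was 2148 against 766. At least 2-fold higher were 1 of 6 basal, 5 of 6 hyperproliferative and 6 of 9 macrophage genes, beside 2.27% of all measured genes. Suprabasal keratinocyte genes summed to 10678 against 4701 and mast cell genes to 933 against 556. In each of these 2 lists 2 of 6 measured genes had log2 ratios below 0, the lowest Ivl (-1.50) and Kit (-0.46). All these lists were higher by summed signal on the same array as Epgn and Hbegf. Their part in the Epgn and Hbegf differences was not tested. The median log2 ratio was 0.82 for suprabasal keratinocyte markers, 0.83 for mast cells, 0.34 for endothelium, 0.22 for fibroblasts, 0.06 for granulocytes and 0.03 for adipocytes. It was -0.34 for hair follicle, -0.82 for sebaceous gland, -0.86 for muscle and -1.03 for melanocytes. Of 6 T cell markers only Thy1 was above the floor (0.80), and Cd3d, Cd3e, Cd3g, Cd4 and Cd8a lay below it on both arrays.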

How the data were processed

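Biotin-labelled total RNA from back skin was hybridised to 1-colour arrays, 1 per genotype, and samples were grouped by source name. The authors deposited linear signal intensities for 22690 probe sets. The 2% trimmed mean was 100.03 on both arrays, so values had been scaled before deposit, by software not given in the sources used here. Probe sets were named through a platform annotation of 2016 when they listed 1 gene (20380 of 22626 non-control probe sets, with 691 naming several and 1555 none), and symbols were updated to GRCm38.p6. Control probe sets (64) were left out. Signals were scaled to equal 2% trimmed means, raised to a floor at the 40th percentile (34.7) and put on the log2 scale. The brightest probe set by summed signal represented a gene, which counted as measured when above the floor on at least 1 array. A letter suffix in a probe set's name marks probes shared between transcripts or genes.

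The genes named are all members, the 2 highest and 2 lowest of each pathway list, and checks of tissue and genotype. Other genes, such as Adam17, Adam10, Dusp6, Ahr, Pf4 and Parm1, were added after their values were seen. The members and lists were chosen with earlier results of these data known. The calculation was tested on simulated data, with changes beyond 2-fold placed in genes of signal well above the floor. That test does not cover smaller ratios or genes nearer the floor. Python 3.11.15, pandas 2.3.3 and statsmodels 0.14.6 were used. The alternatives were other scalings, floors, probe set rules and limits. Ratios were compared with no test, since each group has 1 array.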

Additional observations from a re-analysis of the deposited data

How the results depend on the processing

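With 1 array per genotype the values have no replicate error, and signals near the floor limit what can be read. No paired analysis was possible because each group has 1 sample. Of 81 log2 ratios of the 9 genes under 9 alternatives, 80 moved by less than 0.265, the SD of a probe set's ratio estimated from genes with 2 probe sets. The exception was Errfi1 at 0.00 with the mean over measured probe sets. Many of the 81 could not move, so the count overstates how stable the ratios are. The deposited values already had equal trimmed means, and a 20th-percentile floor lies below every member signal used. Probe set rules could not change genes with 1 measured probe set. Epgn ran from 2.38 to 2.70, Hbegf from 0.81 to 1.03, Egfr from -0.25 to 0.05 and Tgfa from -0.30 to -0.04. With lowess centring and with a 1.5-fold limit 2 ligands were higher, Hbegf being added to Epgn. Adaptor and kinase genes counted 2 higher with the pseudocount and with a 20th-percentile floor, and 0 with the mean over probe sets, without suffixed probe sets and at 3-fold. Feedback genes counted 0 higher with a 60th-percentile floor, with the mean over probe sets, without suffixed probe sets and at 3-fold, and 5 at 1.5-fold. Responsive transcripts counted 1 higher with the pseudocount, 7 at 1.5-fold and 0 at 3-fold. Over all genes 202 were higher and 97 lower. These counts became 393 and 257 with a 20th-percentile floor, 123 and 45 with a 60th-percentile floor, 605 and 567 at 1.5-fold, and 61 and 9 at 3-fold.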

Other observations

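Epgn, Ereg, Areg and Btc follow one another on mouse chromosome 5 with no other protein-coding gene between them in the RefSeq gene table. The 5 nearest measured genes on each side, singled out after the values were seen, included 9 above the floor on both arrays, with log2 ratios from -0.40 to 1.42. The other, Cxcl5, a neutrophil chemokine gene, read 35.5 against a wild-type signal of 1.6, far below the floor, so its ratio is a bound that says little. The highest of the 9 was Pf4, a chemokine gene of platelets and macrophages, which read 311.2 on the transgenic array against 116.7 on the wild-type array. On the other side Parm1 read 153.7 against 104.6, a log2 ratio of 0.56. Epgn thus had a higher ratio than its measured neighbours in the ligand cluster, Ereg (0.37) and Btc (0.36), and than the 9 flanking genes above the floor on both arrays.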
